A study of Drosophila melanogaster with 4 samples.

Results

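Isolated clusters are regions enriched for H3K9acS10P that stand alone on a chromosome arm, with no other enriched region within 15 kb on either side. H3K9acS10P is histone H3 that carries both an acetyl group on lysine 9 and a phosphate on serine 10. The authors' list that combines both ChIP replicates holds 8976 enriched regions, called clusters here, and 207 of them met the rule. The rule took clusters on the arms 2L, 3L, 3R and X, required at least 15 kb of sequence free of other listed clusters on each side, and kept those that share at least 1 bp with a cluster of at least 1 replicate. The end of an arm did not count as a neighbour. The other 4795 clusters on these arms that share sequence with a replicate cluster serve as the comparison.

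The study mapped H3K9acS10P by chromatin immunoprecipitation and sequencing (ChIP-seq) in nuclei from heads of adult Oregon-R flies, a wild-type strain of Drosophila melanogaster, and the labels name the antibody as a new lot. Of its samples, 2 are ChIP and 2 are input chromatin, and every sample has the same strain, genotype and stage, given as mixed adult. Each ChIP replicate has its own input, and nothing in the labels tells whether the replicates were separate fly collections, so replicate spread may be technical only. Whole heads hold neurons, glia, photoreceptors, fat body and other cells, so a cluster may stem from some of these cell types only, and the sources used here do not give the sex.

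Acetylated lysine 9 is a mark of active promoters, and in flies the kinase JIL-1 places the phosphate on serine 10 outside mitosis, mostly in gene-rich, active chromatin. Active fly genes often lie close together, so that marks of active promoters come in groups along the arms, while gene-poor stretches and the sequence near centromeres carry few of them. A lone cluster thus marks a small enriched site inside a longer stretch in which the authors listed nothing else. Positions are on FlyBase release r5, per the file headers. No annotation or genome of that release was used here, so regions go by arm and position, and their genes and sequences are not given.

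Members were chosen by the position of their calls and by their overlap with the replicates. Width, score and presence in a replicate come from the same calls, so these are described side by side with the other clusters and no difference is tested. Scores are those the authors gave to each cluster. The sources used here do not give the scale of the scores, and library depth is unknown. Exact 95% binomial intervals beside shares treat clusters as independent and cover counting error only.

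Isolated clusters were few and small. They made up 4.14% of the 5002 replicate-supported clusters on the 4 arms (207, exact 95% interval 3.60 to 4.73%) and 3.12% of the sequence in them, 0.626 Mb. Their median width was 2395 bp (quartiles 1925 and 3345 bp, range 1127 to 9517 bp), against 3203 bp for the other supported clusters (quartiles 2262 and 4774 bp, range 1001 to 51103 bp). With supported clusters of all other scaffolds taken in as well, the comparison set grew to 6244 clusters with a median of 3167 bp. No isolated cluster reached 10000 bp (0 of 207, exact upper limit 1.77%), while 210 of 4795 other clusters did (4.38%, 3.82 to 5.00%). At the narrow end, 59 isolated clusters (28.5%, 22.5 to 35.2%) measured under 2000 bp, against 728 of the others (15.2%, 14.2 to 16.2%).

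The replicates' own lists gave the same order of widths. In replicate 1 the clusters at isolated positions had a median width of 2235 bp (n = 169), against 2695 bp at the other positions (n = 4235). In replicate 2 the medians were 2196 bp (n = 175) and 2646 bp (n = 4251). Isolated clusters were thus the narrower set in both lists.

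Scores were lower as well, with the bulk of both sets overlapping. The median combined score was 0.603 for isolated clusters (quartiles 0.426 and 0.869) and 0.690 for the others (0.484 and 0.967). In replicate 1 the medians were 0.761 at isolated positions and 0.841 at the others, and in replicate 2 they were 0.756 and 0.820. When the 4 quartile groups of score were formed over all supported clusters, 71 isolated clusters (34.3%, 27.9 to 41.2%) fell in the lowest group and 42 (20.3%, 15.0 to 26.4%) in the highest. A score of at least 1 was reached by 35 of 207 isolated clusters (16.9%, 12.1 to 22.7%) and by 1089 of 4795 others (22.7%, 21.5 to 23.9%), where the share over all supported clusters was 22.5%.

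At matched width the difference in score was small. Wider clusters scored higher in both sets, with Spearman's rho of 0.742 across the 207 isolated clusters and 0.620 across the 4795 others, which share libraries and calls. Among clusters of 1000 to under 2000 bp the median score was 0.386 for 59 isolated clusters and 0.395 for 728 others. From 2000 to under 3000 bp it was 0.597 for 78 isolated clusters and 0.591 for 1435 others. The isolated set thus lay below the others in the narrowest group and above them in the next. From 3000 to under 4500 bp the medians were 0.820 (36 isolated clusters) and 0.797 (1283 others), and from 4500 bp on they were 0.905 (34 isolated clusters) and 0.919 (1349 others). In each width group these medians lay within the quartiles of the other set, and the groups were filled differently: 16.4% of isolated clusters and 28.1% of the others were in the widest one.

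**Figure D1:**
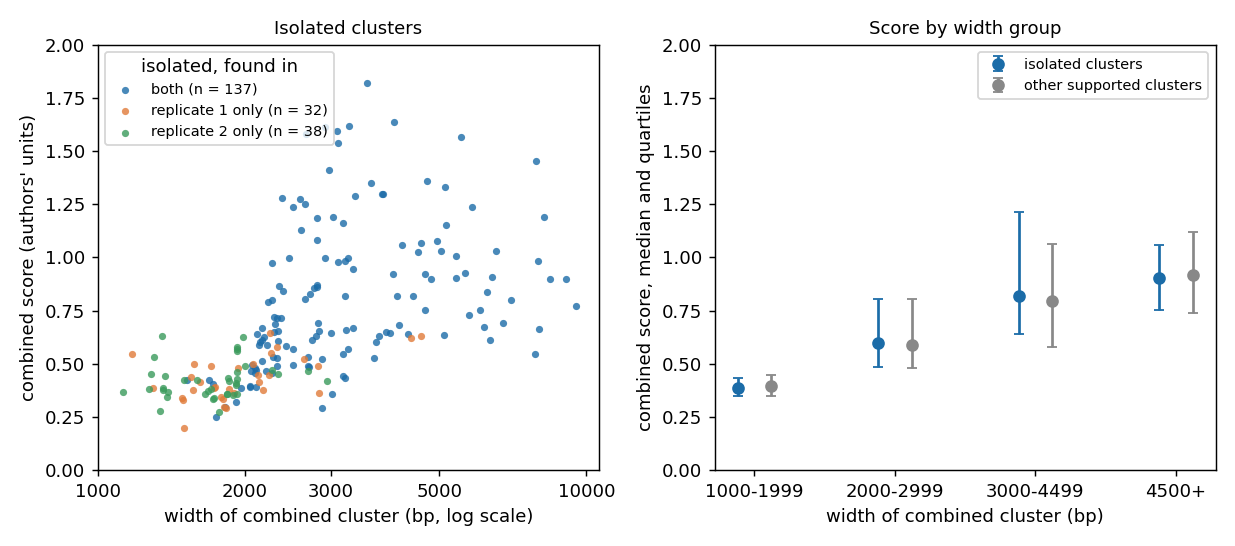
Left, the combined score of each of the 207 isolated clusters (vertical, authors' units) against its width in bp (horizontal, log scale), coloured by the replicates it was found in. Right, the median score (point) and quartiles (bars) of isolated clusters and of the other supported clusters in 4 width groups; the medians lie close together in each group, such as 0.386 and 0.395 in the narrowest.

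Presence in both replicates followed the same pattern. Rows of the combined list on the 4 arms overlapped a cluster of at least 1 replicate in 71.3% of cases. Of all 369 rows with 15 kb free on each side, 162 overlapped neither replicate and so are not members (43.9%, 38.8 to 49.1%), against 1848 of the 6643 rows with a closer neighbour (27.8%, 26.7 to 28.9%). Those 162 rows had a median width of 1248 bp and a median score of 0.443, with a highest score of 0.884. An empty surrounding therefore went with a larger share of listed regions that neither replicate list holds.

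Among the 207 members, 137 overlapped clusters in both replicates (66.2%, 59.3 to 72.6%), 32 in replicate 1 only and 38 in replicate 2 only. Over all supported clusters 76.5% were in both, and among the 4795 others 3691 were (77.0%, 75.8 to 78.2%). The rule required a cluster in at least 1 replicate, so this share is a description of how it was filled. The members in both replicates had a median width of 2971 bp and a median score of 0.731. Members in replicate 1 only had 1840 bp and 0.414, and members in replicate 2 only had 1807 bp and 0.413. Single-replicate members were thus narrow and low-scoring, whichever replicate held them.

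Wider and higher-scoring clusters were more often in both replicates, in the isolated set and among the others alike. Under 2000 bp, 7 of 59 isolated clusters (11.9%) and 95 of 728 others (13.0%) were in both replicates. From 2000 to under 3000 bp the shares were 79.5% of isolated clusters and 77.4% of the others. From 3000 to under 4500 bp they were 97.2% and 90.1%, and from 4500 bp on 97.1% and 98.5%, again with the isolated set first. The isolated set thus stood higher in both middle width groups and lower in the narrowest and the widest. In the lowest score group 20 of 71 isolated clusters were in both replicates (28.2%, 18.1 to 40.1%), against 358 of 1180 others (30.3%, 27.7 to 33.1%). In the next group 41 of 60 isolated clusters were (68.3%, 55.0 to 79.7%), against 917 of 1190 others (77.1%, 74.6 to 79.4%). In the 2 highest score groups all 34 and all 42 isolated clusters were in both, against 1207 of 1216 and 1209 of 1209 others. Each of the 35 isolated clusters with a score of at least 1 was therefore found in both replicates.

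Where both replicates held an isolated cluster, their values lay close. Each replicate's values are those of its cluster that shares most bases with the member. The 2 replicate clusters therefore need not overlap each other, and on 2L from 3083276 they did not. Over the 137 such clusters, the absolute difference between replicate scores had a median of 0.109 (quartiles 0.0588 and 0.186), against 0.103 over the 3691 others (0.0485 and 0.185). Spearman's rho between replicate scores was 0.861 across the isolated clusters and 0.843 across the others. Replicate 2 scored higher in 78 of the 137 isolated clusters and replicate 1 in 59, while among the others replicate 2 scored higher in 1666 and replicate 1 in 2025. The median difference of replicate 2 minus replicate 1 was 0.0293 in the isolated set and -0.0171 in the others, both small beside the typical difference for a cluster. Starts in the replicates lay a median of 97 bp apart and ends 104 bp apart at isolated positions, against 148 and 143 bp at the others.

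The largest disagreement in score was on 2L from 8825204 to 8831262, a cluster of 6059 bp with 83.7 kb free on its left and 110.6 kb on its right. Replicate 1 scored 0.564 there and replicate 2 scored 1.16. Replicate 1 had 2 separate clusters inside it, the better-matching one 1968 bp wide, where replicate 2 had 1 cluster of 4814 bp. The replicates thus differed in extent and in score at that site. Next came 3L from 6782576 to 6786334, with scores of 0.390 in replicate 1 and 0.907 in replicate 2 and widths of 1859 and 3857 bp. These clusters were picked for their difference.

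**Figure D2:**
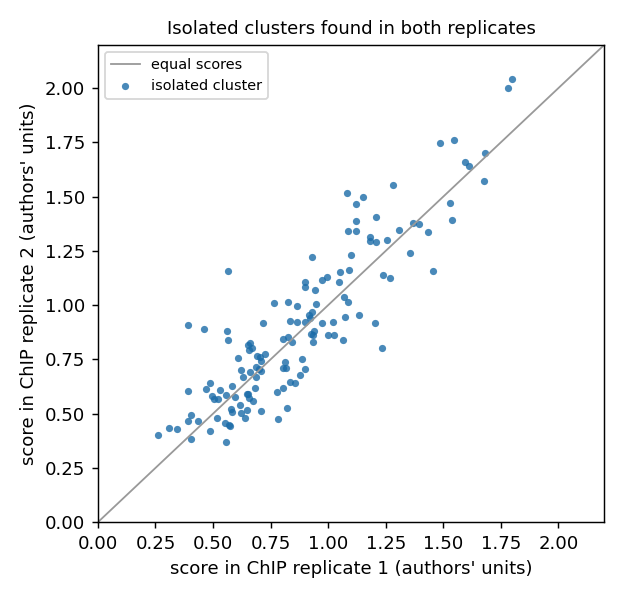
Score in ChIP replicate 2 (vertical) against score in ChIP replicate 1 (horizontal), both in authors' units, for the 137 isolated clusters found in both replicates, with the line of equal scores. The points follow the line, and the farthest from it, at 0.564 and 1.16, is the cluster on 2L that starts at 8825204.

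The combined list takes in nearly all replicate clusters, so the rule by itself left few replicate clusters in the flanks of a member. Of 169 members with a replicate 1 cluster, 158 had one that lay at least 15 kb from its neighbours in that replicate's own list (93.5%, 88.7 to 96.7%), and of 175 members with a replicate 2 cluster, 162 did (92.6%, 87.6 to 96.0%). Of the exceptions, 10 of 11 in replicate 1 and 12 of 13 in replicate 2 were members that held several clusters of that replicate, so their neighbour lay inside the member itself. At 10 kb to the right of the other supported clusters, which had no such limit, 27.1% met a cluster of replicate 1 and 27.0% a cluster of replicate 2.

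Isolation was more common in each replicate's own list than in the combined one. The combined list held 369 isolated clusters among 7012 on the 4 arms when no replicate support was required. Replicate 1 listed 465 isolated clusters among 4990 on the 4 arms (9.32%, 8.53 to 10.2%), and replicate 2 listed 463 among 4997 (9.27%, 8.48 to 10.1%). Of these, 158 in replicate 1 and 162 in replicate 2 (34.0% and 35.0%) were the partner of a member. Of the 307 remaining ones in replicate 1, 305 matched a combined cluster with a neighbour under 15 kb away, as did 299 of 301 in replicate 2. Whether added calls or wider ones brought that neighbour closer was not tested.

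**Figure D3:**
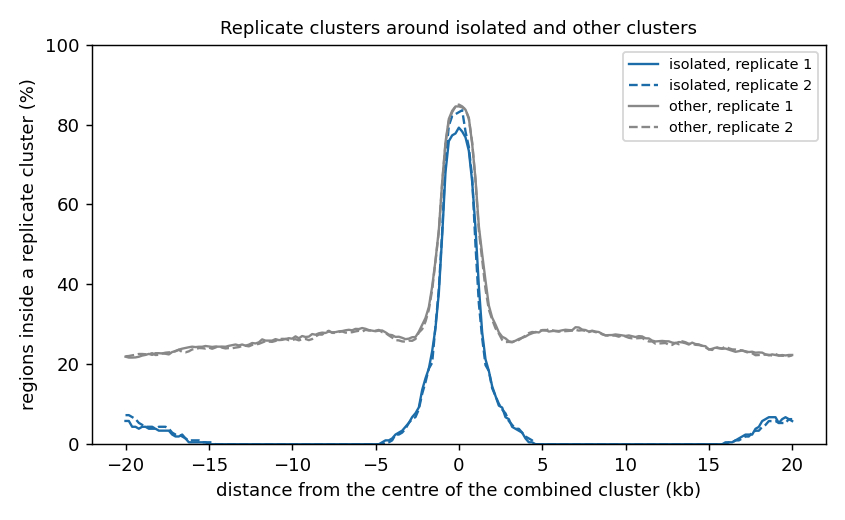
Share of regions (vertical, %) whose sequence at a given distance from the centre of the combined cluster (horizontal, kb) lies inside a cluster of replicate 1 (solid) or replicate 2 (dashed), for the 207 isolated clusters and the 4795 others. The isolated set is at 0% at 5 and 10 kb on either side, as the rule on the combined list implies, while the others stay above 20%.

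Most members lay well beyond the limit. The distance to the nearer neighbour had a median of 22.2 kb (quartiles 18.1 and 29.8 kb) and that to the farther neighbour a median of 44.0 kb, while the nearer neighbour of the other supported clusters lay a median of 1.18 kb away. Both gaps were at least 20 kb for 130 members, at least 30 kb for 52 and at least 50 kb for 12. The members just inside the limit lay on 3R from 21177806 to 21180082 (nearer gap 15.09 kb, score 0.471), on 2L from 20828916 to 20830744 (15.11 kb, score 0.293) and on X from 13047942 to 13056124 (15.13 kb, score 1.19). The clusters just outside it lay on 3L from 14855702 to 14857238 (14.99 kb, score 0.310), on 3R from 21996048 to 21998262 (14.88 kb, score 0.495) and on 3R from 3107922 to 3109818 (14.87 kb, score 0.335). The last of the inner ones was 8183 bp wide, while the other 5 measured between 1537 and 2277 bp.

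Across all supported clusters, those with a more distant nearer neighbour scored lower from 1 kb up to 15 kb, with no further steady fall beyond it. The median score was 0.707 for a gap under 1 kb, 0.731 from 1 kb, 0.682 from 2 kb, 0.613 from 5 kb and 0.509 from 10 to under 15 kb. It was 0.610 from 15 to under 20 kb, 0.611 from 20 to under 30 kb and 0.542 from 30 kb on. Among members, Spearman's rho between the nearer gap and the score was -0.0671, and between the nearer gap and width it was -0.0490 (207 clusters), so distance beyond 15 kb went with little change in either. The share in both replicates was 61.6% from 10 to under 15 kb, 70.1% from 15 kb, 69.2% from 20 kb and 55.8% from 30 kb on (29 of 52).

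**Figure D4:**
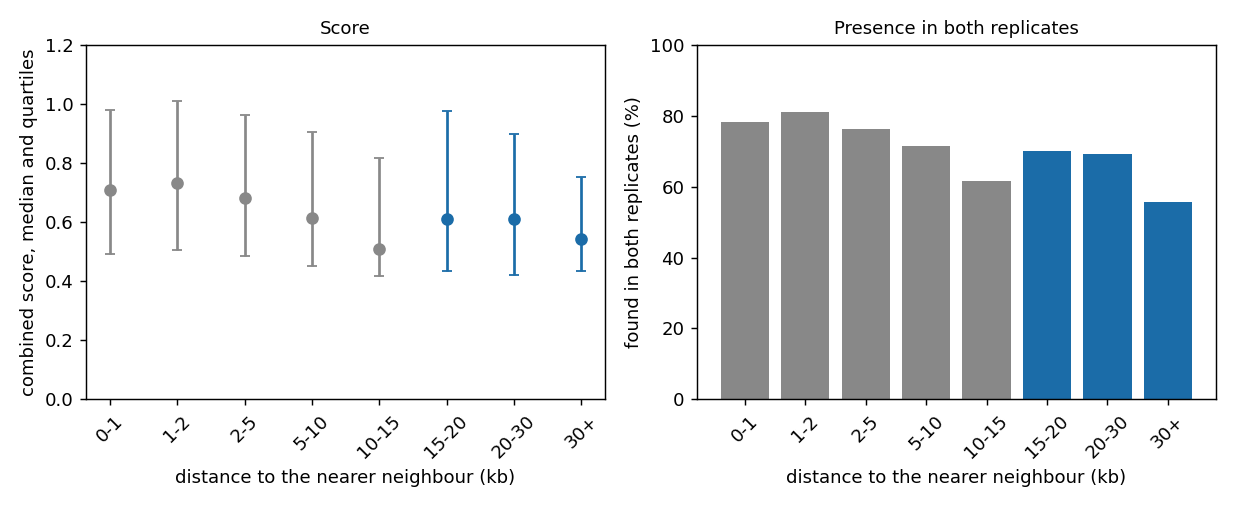
Replicate-supported clusters of the 4 arms by distance to the nearer neighbour (horizontal, kb), with isolated clusters in blue. Left, the median combined score (points) and quartiles (bars); right, the share found in both replicates (%). The score falls to 0.509 at 10 to 15 kb and stands at 0.610 just beyond the limit.

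Some members had many supported clusters within 100 kb, although the rule itself empties at least 15 kb of that window on each side and so lowers their count. Within that distance of its centre a member had a median of 7 other supported clusters (quartiles 4 and 10), against 12 for the others (9 and 15). At least 10 were found near 62 members (30.0%). The share of the others with at least 10 was not counted, but their median of 12 lies above that mark. Of the members, 39 (18.8%, 13.8 to 24.8%) had 3 or fewer, which held for 97 of the others (2.02%). Neighbours were counted for each side of each member, so a cluster between 2 members counts for both. Of these 413 neighbours, 217 (52.5%) were in both replicates and 134 (32.4%, 27.9 to 37.2%) in neither. Over all rows of the 4 arms the shares were 54.6% in both and 28.7% in neither. The 2 sets of shares do not compare directly, since neighbours that are themselves members overlap a replicate by the rule. The supported cluster nearest to a member lay a median of 26.1 kb away. At 65 members a neighbour was itself a member.

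The most remote member lay near the centromere of 3L, from 24224296 to 24225796, with 155.8 kb free on its left and 303.5 kb on its right. It was also the lowest-scoring member, with 0.201 in the combined list and 0.318 in replicate 1, and replicate 2 had no cluster within 155.9 kb. Next came 2L from 21932454 to 21934382, with a nearer gap of 84.2 kb, a score of 0.633 in replicate 2 and no replicate 1 cluster within 172.6 kb. The next, on 2L from 8825204, is the cluster on which the replicates differed most. It was followed by 2L from 16167772 to 16169686, which scored 0.342 in replicate 1 and 0.431 in replicate 2 with 61.1 kb free on the left and 61.2 kb on the right, and by X from 20199888 to 20202134, which only replicate 1 held (score 0.796, nearer gap 58.2 kb). Of the 12 members with at least 50 kb on both sides, 7 were in both replicates, and their median score was 0.553. Extreme remoteness thus came with scores from 0.201 to 1.59 among these 12.

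Of the 10 highest-scoring members, 8 measured under 4500 bp, near the share over all members, of which 16.4% measured at least that. The list was drawn from members in both replicates, which took in every member that scored at least 1. First was a cluster of 3557 bp on 3L from 23141026 to 23144582, which scored 1.78 in replicate 1 and 2.00 in replicate 2 (mean 1.89 ± 0.156, SD, n = 2), with 20.1 kb free on the left and 53.6 kb on the right. Then came a pair on 3L, separated by 19.0 kb and alone in a much longer stretch. Its left member, from 23707158 to 23711188, had 372.7 kb free on its left, the longest free flank of any member, and scored 1.68 in replicate 1 and 1.70 in replicate 2. Its right member, from 23730146 to 23732810, had 287.7 kb free on its right and scored 1.48 and 1.74 in replicates 1 and 2.

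Further leading members stood near the centromere end of 2L, with other listed clusters between them. The cluster from 22689098 to 22692018 (2921 bp, 214.0 kb free on the left and 43.0 kb on the right) scored 1.61 in replicate 1 and 1.64 in replicate 2. The cluster from 22816454 to 22819542 (3089 bp, 73.9 kb free on the left and 54.1 kb on the right) scored 1.59 and 1.66. At both sites, which were picked for their scores, the replicate scores differed by less than the median of 0.109 over isolated clusters in both replicates. On X, the cluster from 15031050 to 15034314 had scores of 1.55 (replicate 1) and 1.76 (replicate 2), and the one from 16774528 to 16782428 (7901 bp) scored 1.54 and 1.39. On 3L near the telomere, the cluster from 1246586 to 1249684 scored 1.68 and 1.57.

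On 3R, the cluster from 17119208 to 17124732 had the highest score of any member in both replicate lists, 1.80 in replicate 1 and 2.04 in replicate 2, though its combined score of 1.56 ranked seventh. It held 2 clusters of replicate 1, and the combined cluster measured 5525 bp where the replicate clusters measured 3270 and 3231 bp. The tenth-ranked member, on 3R from 25143238 to 25146208, scored 1.53 and 1.47 in replicates 1 and 2, and both its neighbours were clusters found in neither replicate, so that its nearest supported cluster lay 56.4 kb away. By arm, 14 of 64 members on 3L scored at least 1 (21.9%, 12.5 to 34.0%), as did 10 of 69 on 3R (14.5%). On 2L 7 of 45 did (15.6%), and on X 4 of 29 (13.8%, 3.89 to 31.7%). The exact interval of each arm took in the share of 16.9% over all members, so these shares do not set the arms apart. Members of that score had a median width of 3625 bp, against 4373 bp for the other supported clusters at that level.

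The 5 widest members had combined scores from 0.662 to 1.19, all below those of the 10 highest-scoring members. No member under 2000 bp scored at least 1 (0 of 59). The widest, 9517 bp on 3R from 18604274 to 18613790, held 3 clusters of replicate 1 and 1 of replicate 2, with scores of 0.923 and 0.942 in replicates 1 and 2. On X, 9061 bp from 8606834 to 8615894 formed 1 cluster of 8975 bp in replicate 1 (score 0.916) and 2 in replicate 2, the better-matching of 4859 bp (score 0.956). On 2L, 8405 bp from 12815244 to 12823648 matched 5720 bp in replicate 1 (score 0.942) and 8121 bp in replicate 2 (score 1.07). The cluster on X from 13047942 scored 1.21 and 1.41 in replicates 1 and 2, and that on 2L from 3083276 to 3091282 (8007 bp) scored 0.802 and 0.617. The last 2 scores belong to different parts of that member, from 3087674 to 3091252 in replicate 1 and from 3084017 to 3086577 in replicate 2. At 4 of these 5 sites at least 1 replicate divided the region into several clusters.

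The strongest members found in a single replicate scored well under the leading ones. In replicate 1 only, the combined scores were 0.643 on X from 20199888, 0.631 on 2L from 15654988 to 15659582 and 0.622 on X from 13826004 to 13830380. In replicate 2 only, they were 0.633 on X from 20693580 to 20694932, 0.624 on X from 5488206 to 5490190 and 0.580 on X from 12076954 to 12078880. Thus 5 of these 6 lay on X, though all 6 were picked for their scores. The lowest member score was 0.422 on X and 0.201 to 0.273 on the other arms. Over all members, 58.6% were in both replicates on X, against 60.0% on 2L, 67.2% on 3L and 72.5% on 3R. For the 6 named clusters, the missing replicate's nearest cluster lay 58.5, 28.9 and 41.4 kb away from the first 3, in that order. It lay 98.6, 21.4 and 18.3 kb from the other 3. Over all single-replicate members that distance had a median of 27.5 kb where replicate 1 was missing (n = 38) and 31.4 kb where replicate 2 was missing (n = 32). It was under 15 kb at 1 site, the cluster on 2L from 20828916 (14.5 kb).

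By arm, isolated clusters were least common on X. X held 29 of the 207 (14.0%, 9.59 to 19.5%) and 1052 of the 4795 others (21.9%), and accounts for 22.9% of the sequence of the 4 arms. The arm 3L held 64 isolated clusters (30.9%, 24.7 to 37.7%) and 24.7% of the others, 3R held 69 (33.3%, 27.0 to 40.2%) and 30.8% of the others, and 2L held 45 (21.7%, 16.3 to 28.0%) and 22.5% of the others. As a share of an arm's own supported clusters, isolated ones were 2.68% on X, 4.00% on 2L, 4.46% on 3R and 5.12% on 3L. The interval on X (1.80 to 3.83%) ended below the values of the 3 autosomal arms, though it overlapped the intervals of 2L and 3R. It did not overlap the interval of 3L, which began at 3.97%. Both replicates' own lists showed a milder form of the low share on X, with 18.3% and 18.4% of their isolated clusters there.

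On X, as on the other arms, isolated clusters were narrower than the other supported clusters. The median width on X was 2655 bp for isolated clusters and 3818 bp for the others. On 2L the medians were 2229 and 3013 bp, on 3L 2387 and 3097 bp, and on 3R 2653 and 3113 bp, again with the isolated set first. The gap between the sets was thus widest on X. Scores on X had medians of 0.624 for isolated clusters and 0.763 for the others. On 3R they were 0.546 and 0.690, on 3L 0.562 and 0.659, and on 2L 0.603 and 0.632. In replicate 1 on 2L the order turned, with a median of 0.818 at isolated positions and 0.781 at the others, while in replicate 2 it was 0.712 and 0.760. On 3L it turned in replicate 2, with 0.782 at isolated positions and 0.763 at the others, while in replicate 1 it was 0.703 and 0.798. The lower score of isolated clusters thus held in both replicates on 3R and X, and in 1 replicate each on 2L and 3L.

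Along the arms, the bin nearest the centromere held the largest share of isolated clusters. With each arm divided into 10 bins of equal length, the bin at the telomere held 18 isolated and 540 other clusters (3.23% isolated) and the bin at the centromere 27 and 349 (7.18%). The bins between them ran from 3.15 to 5.20%. Of the 27 members in the centromere bin, 3L held 11, 2L held 8, 3R held 5 and X held 3. Unique read placement in centromere-near repeats is not known from these lists, and its part in the counts was not tested.

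Members near the centromere included many of the highest scores, though their median combined score was not high. That median was 0.654 for the 27 members of the centromere bin and 0.583 for the 180 in the other bins, against 0.682 and 0.690 for the other supported clusters. In that bin 11 of 27 isolated clusters scored at least 1 (40.7%, 22.4 to 61.2%), against 24 of 180 isolated clusters in the other bins (13.3%, 8.73 to 19.2%). Among the other supported clusters the shares were 24.6% in the centromere bin and 22.6% elsewhere. In replicate 1 the median score of members was 1.05 in the centromere bin (n = 23) and 0.723 in the rest (n = 146), and in replicate 2 it was 1.15 (n = 23) and 0.739 (n = 152). The same medians for the other clusters were 0.820 and 0.842 in replicate 1 and 0.834 and 0.819 in replicate 2. Each of these replicate medians leaves out the members that the replicate does not hold. On 3R alone the centromere bin had a median of 0.985 in replicate 1 and 0.764 in replicate 2, and without 3R it had 1.05 and 1.24. Of the 10 highest-scoring members, 5 lay in this bin, on 2L and 3L. These bins were looked at after scores of members were known, and the bin rests on few clusters.

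The longest runs of consecutive members held 3 clusters. Of 5 such runs, the first in order of position lay in this bin on 2L. It spanned 233.7 kb with clusters from 21343546 to 21346792, from 21378886 to 21384044 and from 21572488 to 21577202. Their scores were 1.05, 1.08 and 1.37 in replicate 1 and 1.15, 1.52 and 1.38 in replicate 2, and 188.4 kb without any listed cluster lay between the second and the third. All 3 were in both replicates, which did not hold for every run. In the run on 3L from 4750200 to 4827288, the first 2 members were in replicate 2 only, with combined scores of 0.491 and 0.532. In the run on 3L from 19679012 to 19743580, all 3 were in both.

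**Figure D5:**
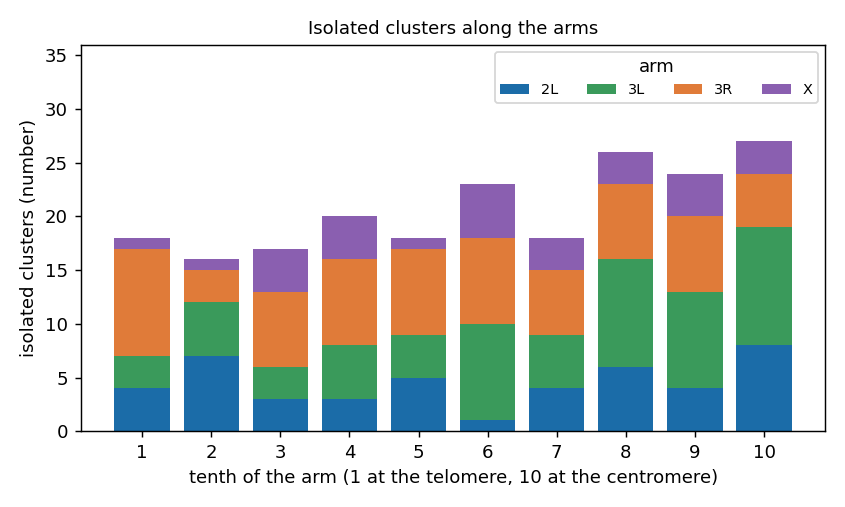
Number of isolated clusters (vertical) in each of 10 equal bins from the telomere (1) to the centromere (10), summed over the arms 2L, 3L, 3R and X and coloured by arm. The count is 18 at the telomere and 27 at the centromere, where 3L and 2L hold most of them.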

How the data were processed

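ChIP-seq of H3K9acS10P was analysed from 3 deposited lists of enriched clusters, 1 for each of 2 ChIP replicates and 1 that combines them. Per the submitters' processing notes, Bowtie 0.12.7 was used, and positions are on FlyBase r5, per the file headers. Each deposited score is the authors' own value for a cluster. The caller, its threshold, the score's scale and the merging of replicates are not given in the sources. No reads, counts or input values were analysed here, so depth is unknown.

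Python 3.11.15 with numpy 2.4.6, pandas 2.3.3 and scipy 1.17.1 was used. Gaps are the free bases between neighbouring clusters of the combined list, and a cluster was shared from 1 bp of overlap. Where a member held several clusters of a replicate, that with most shared bases gave its values. The rule and the overlap were tested on simulated lists. Members, lists and comparisons were chosen with earlier results of these data known. Named regions are the 10 highest-scoring members in both replicates, the 5 widest, the 5 most remote, the 3 highest-scoring in each single replicate, the lowest-scoring, and 3 on either side of the limit. The longest run and the largest replicate differences were named after their values were seen.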

Additional observations from a re-analysis of the deposited data

How the results depend on the processing

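No paired analysis was possible because the results come from no test, and input values were not analysed here. In place of 207 members, minimum gaps of 10, 20 and 30 kb gave 366, 130 and 52 (7.32%, 2.60% and 1.04% of supported clusters in place of 4.14%). Median widths were then 2424, 2334 and 2324 bp in place of 2395 bp, and median scores 0.56, 0.586 and 0.542 in place of 0.603. Only the 30 kb limit moved arm shares, to 42.3% on 3L and 15.4% on 3R. Among the gap limits, it alone moved the share in both replicates, to 55.8%. Counting only replicate-supported clusters as neighbours gave 449 members (8.98%), with 2495 bp and 0.555. Keeping only clusters above the median score, which by itself favours high scores, gave 498 (15.2%), with 3570 bp, 0.782 and 94.6% in both replicates, and 117 of these were among the 207. The gap rule on replicate 1's own list, with support from replicate 2 required, gave 360 (8.34%), with 2324 bp and 0.711. On replicate 2's list, with support from replicate 1 required, it gave 337 (7.82%), with a median score of 0.79. Widths and scores in these 2 settings are the replicates' own and do not compare directly with the combined values. In the replicates' own lists, members had medians of 2235 bp and 0.761 in replicate 1, and of 2196 bp and 0.756 in replicate 2. With replicate 2 left out of the support rule, 169 clusters remained, with medians of 2767 bp and 0.648. With replicate 1 left out, 175 remained, with 2689 bp and 0.642. Each of these sets includes the 137 members found in both replicates. The share in both replicates has no value in these last 4 settings. Covering 50% of a cluster, or counting arm ends as neighbours, moved none of the results. The share on X was 12.8 to 18.3% in all settings. The cause of these shifts was not tested, apart from the number of clusters each rule admits. Unknown depth means that an empty flank is a stretch without a call, not one without the mark.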
